A study of Arabidopsis thaliana with 4 samples.

Results

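Transcript levels of 6 Arabidopsis thaliana genes of secreted and cell-wall-associated protein families were examined in expanded leaves of the jaw-D mutant and of Columbia, both grown in short days. AT4G29020, AT2G05540 and AT4G21620 encode glycine-rich proteins. The others encode a lipid-transfer-like protein (AT5G48490), an aspartyl protease (AT3G54400) and a pectin lyase-like protein (AT1G60590). These family names are background knowledge of the loci, since the gene table used here carries no descriptions. The 6 genes were picked out of 13333 loci measured by a probe set of 1 gene, for large values in jaw-D over Columbia and a wide spread between replicates. Their differences between the genotypes are therefore given as a description. Any count of calls among them is printed beside the share over all probe sets, and supports nothing. Each of the 6 had 1 probe set, and none of them was lost to a filter, as none was applied.

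The jaw-D plants overexpress miR319a, a microRNA that targets messenger RNAs of TCP transcription factors for cleavage, and form crinkled leaves. Columbia is the accession that served as the control. Each genotype had 2 single-colour oligonucleotide arrays of total RNA, and jaw-D is a single mutant allele here. The labels do not say whether arrays came from separate plants or pools, so any p-value reflects the spread of these samples alone, and that spread may be technical. In whole leaves, fewer cells of a type and less RNA per cell cannot be told apart.

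The apoplast is the space outside the plasma membrane, made up of the cell wall and its fluid. Glycine-rich proteins of the secreted kind are deposited in walls, and some of them interact with wall-associated receptor kinases. Lipid-transfer proteins are small, cysteine-rich secreted proteins that carry lipids to the cuticle or in defence signalling. DIR1, the relative after which AT5G48490 is called DIR1-like, is required for the long-distance signal of systemic acquired resistance. Aspartyl proteases of the A1 family include secreted enzymes with roles in disease resistance, and pectin lyase-like proteins share the fold of enzymes that cut the pectin of the wall.

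The arrays were alike in overall level, as the deposited signals had been scaled. Median signals were 74.6 and 76.5 in jaw-D and 76.7 and 77.2 in Columbia. The low end differed, as probe sets under 16 made up 22.3% and 21.7% in jaw-D and 17.8% and 18.4% in Columbia. The part of this in the differences over all probe sets was not tested. The 25S rRNA control read 2760 and 408 on jaw-D arrays 1 and 2 and 3146 and 800.4 on Columbia arrays 1 and 2, so that it was higher on array 1 of both genotypes. For GAPDH, the 3' over 5' control ratio, a sign of RNA integrity, was 2.06 on jaw-D array 1 and 1.36 on jaw-D array 2, against 1.41 and 1.43 in Columbia. With another GAPDH design the ratio lay between 1.04 and 1.24 on all 4 arrays. For actin it was 11.9 and 8.74 in jaw-D and 5.28 and 10.75 in Columbia, and in a second actin design 2.56 and 1.93 in jaw-D and 2.06 and 2.07 in Columbia, so jaw-D array 1 was highest in both. Of the leaf mesophyll markers, 2 of 6 were measured, with summed signals of 21258 and 17984 in jaw-D and 20554 and 23859 in Columbia. The 3 measured of 4 root markers summed to 72.5 and 70.2 in jaw-D and 92.0 and 79.2 in Columbia, and the 3 of 5 guard cell markers to 105 and 118 in jaw-D and 100 and 86.6 in Columbia. The 1 trichome marker of 3 read 44.5 and 45.6 in jaw-D and 76.1 and 51.3 in Columbia, and the 1 senescence marker of 3 read 79.7 and 110.3 in jaw-D and 84.1 and 140.6 in Columbia. Markers of flower, vascular and epidermal cells were not analysed here. The part of RNA integrity or cell makeup in the results was not tested.

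The glycine-rich gene AT4G29020, on chromosome 4, had the widest difference of the 6. Its signal was 591.3 and 1870.4 on jaw-D arrays 1 and 2, against 130.7 and 259.8 on Columbia arrays 1 and 2. The genotypes did not overlap, yet the jaw-D arrays stood 3.16-fold apart and the Columbia arrays 1.99-fold apart. Means were 1231 ± 904 in jaw-D and 195 ± 91.3 in Columbia (SD, n = 2 arrays each, as for all means here), a ratio of 6.30. Differences are given on the log2(signal + 16) scale, which shrinks those of dim probe sets, and this one was 2.41. Leaving out jaw-D array 2 gave 1.59 and leaving out jaw-D array 1 gave 3.23, so the size of the difference turned on which mutant array was read.

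AT2G05540 is a glycine-rich gene on chromosome 2, where other genes of this kind stand beside it. It read 2276.2 and 1299 in jaw-D, against 310.1 and 880.8 in Columbia. Here jaw-D array 1 was the high one, and the lower jaw-D array exceeded the higher Columbia array by only 1.47-fold. The means of 1788 ± 691 in jaw-D and 595 ± 404 in Columbia gave a log2 difference of 1.68. Left out in turn, Columbia array 1 took the difference to 0.95 and Columbia array 2 to 2.41.

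AT4G21620, the other glycine-rich gene on chromosome 4, was the steadiest of the 6. Its signals were 1798.9 and 1375.7 in jaw-D and 530.9 and 626.7 in Columbia. The lower jaw-D array lay 2.20-fold above the higher Columbia array, while arrays of one genotype differed by at most 1.31-fold. Means were 1587 ± 299 in jaw-D and 579 ± 67.7 in Columbia, a ratio of 2.74 and a log2 difference of 1.42. This was the smallest difference of the 6, and leaving out 1 array kept it between 1.23 and 1.61.

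AT5G48490, the DIR1-like gene on chromosome 5, read 784.7 and 1258.2 in jaw-D, against 135.6 and 257.2 in Columbia. Array 2 was the higher one in both genotypes, and the lower jaw-D array was 3.05-fold above the higher Columbia array, the widest such gap among the 6. The means were 1021 ± 335 in jaw-D and 196 ± 86.0 in Columbia, with a ratio of 5.20. The log2 difference was 2.31, and 1.89 to 2.74 with 1 array left out.

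**Figure D1:**
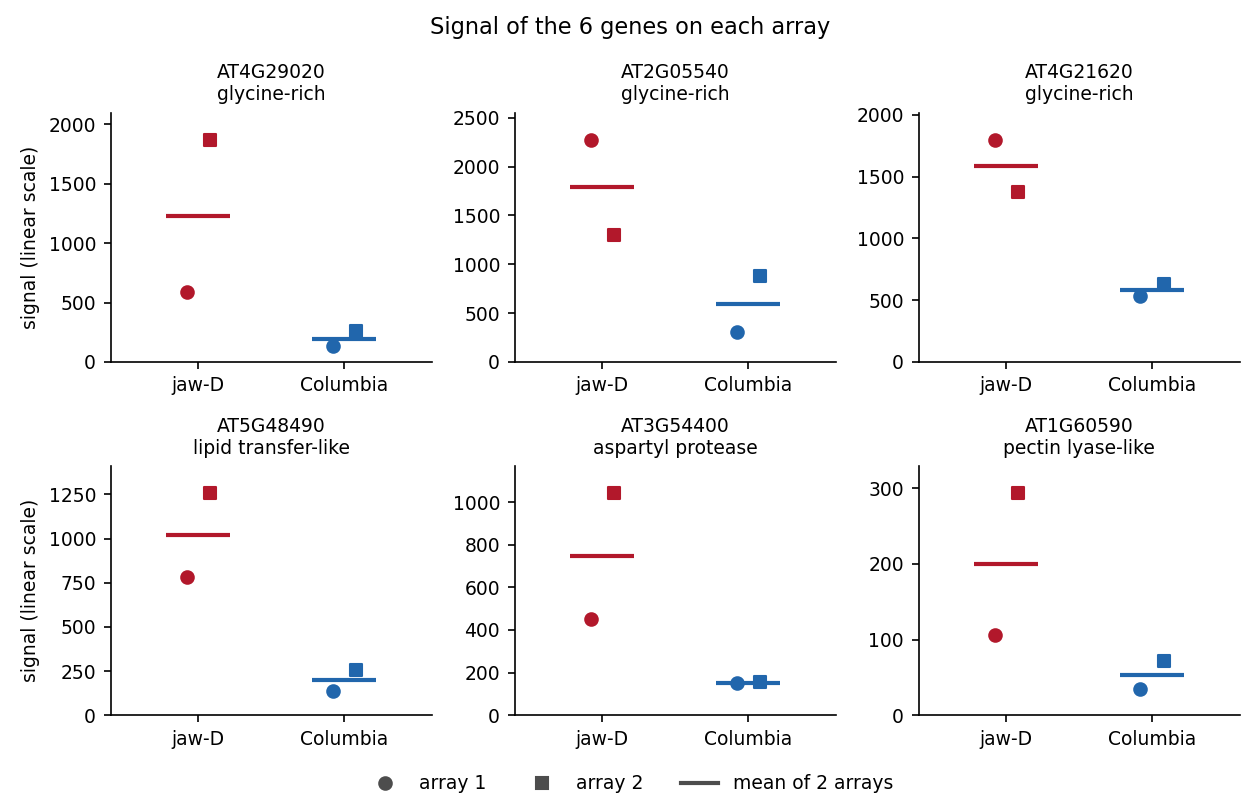
Signal of each of the 6 genes (y axis, linear scale starting at 0, with its own range in each panel) on the 2 jaw-D arrays (red) and the 2 Columbia arrays (blue). Circles are array 1, squares are array 2 and bars are means of 2 arrays. Both jaw-D arrays lie above both Columbia arrays in every panel, and as a ratio of the lower jaw-D array to the higher Columbia array the gap runs from 1.47 for AT2G05540 to 3.05 for AT5G48490.

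The aspartyl protease gene AT3G54400, on chromosome 3, read 452.7 and 1042.7 in jaw-D, against 150.5 and 154 in Columbia. Its Columbia arrays differed by 1.02-fold and its jaw-D arrays by 2.30-fold, so that nearly all of its spread lay in the mutant. Means were 748 ± 417 in jaw-D and 152 ± 2.47 in Columbia, a ratio of 4.91 and a log2 difference of 2.07. Leaving out jaw-D array 2 gave 1.48 and leaving out jaw-D array 1 gave 2.65.

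AT1G60590, the pectin lyase-like gene on chromosome 1, read 105.6 and 293.8 in jaw-D and 34.6 and 71.2 in Columbia. Both genotypes had array 2 as the higher one, by 2.78-fold in jaw-D and 2.06-fold in Columbia, and the lower jaw-D array was 1.48-fold above the higher Columbia array. The means of 199.7 ± 133 in jaw-D and 52.9 ± 25.9 in Columbia had a ratio of 3.78 and a log2 difference of 1.55. Leaving out 1 array moved the difference between 0.87, in the absence of jaw-D array 2, and 2.22, in the absence of jaw-D array 1. It was also the gene that depended most on the constant added before the log2, with 1.81 at a constant of 1 and 1.09 at 64.

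Over the 6 genes, log2 differences ran from 1.42 to 2.41 with a median of 1.87, beside a median of -0.04 over all 22746 probe sets. Ranked by log2 difference over these probe sets, AT4G29020 was number 5, AT5G48490 number 7, AT3G54400 number 14, AT2G05540 number 26, AT1G60590 number 35 and AT4G21620 number 50. All 6 were higher on both jaw-D arrays than on both Columbia arrays, as were 17.5% of all probe sets. By limma with Benjamini-Hochberg adjustment, none of the 6 was among the 43 called probe sets, which are 0.189% of those tested, and 8 of the 43, or 0.0352% of those tested, were higher in jaw-D. All 6 had an unadjusted p under 0.05 by limma, as did 13.0% of probe sets. Since the 6 were picked from these same values, nothing is read from the counts.

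The spread within genotypes set these genes apart from one another. On the log2 scale the pooled SD was 0.94 for AT4G29020, 0.83 for AT2G05540, 0.78 for AT1G60590, 0.59 for AT3G54400 and 0.54 for AT5G48490, beside a median of 0.17 over all probe sets. AT4G21620 had 0.22, which was at or above the value of 67.6% of all probe sets, while each of the others was at or above that of at least 97.5%. Only AT4G21620 therefore departs from the wide spread for which the genes were picked. The Columbia pair had array 2 above array 1 for all 6 genes, by 0.03 (AT3G54400) to 1.46 (AT2G05540) on the log2 scale. Over all probe sets 49.8% were higher on Columbia array 2 than on array 1.

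In jaw-D the genes fell into 2 shapes, described after seeing the values and not tested. AT4G29020, AT5G48490, AT3G54400 and AT1G60590 were higher on array 2, by 1.64, 0.67, 1.18 and 1.35 on the log2 scale. AT2G05540 and AT4G21620 were higher on array 1, and their jaw-D array 2 minus array 1 values were -0.80 and -0.38. Likeness was measured as the Euclidean distance between log2 values over the 4 arrays, each gene centred on its own mean. Among the first 4 genes the distances ran from 0.69 (AT4G29020 and AT5G48490) to 0.90 (AT5G48490 and AT1G60590). AT2G05540 and AT4G21620 were 0.95 apart, and their distances to the first 4 ran from 1.24 to 1.91. The shapes did not follow the protein families, as 1 glycine-rich gene went with the first 4 and the other two formed the second shape. The part of the 25S rRNA signal, which differed between array 1 and array 2 of both genotypes, was not tested for these shapes.

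**Figure D2:**
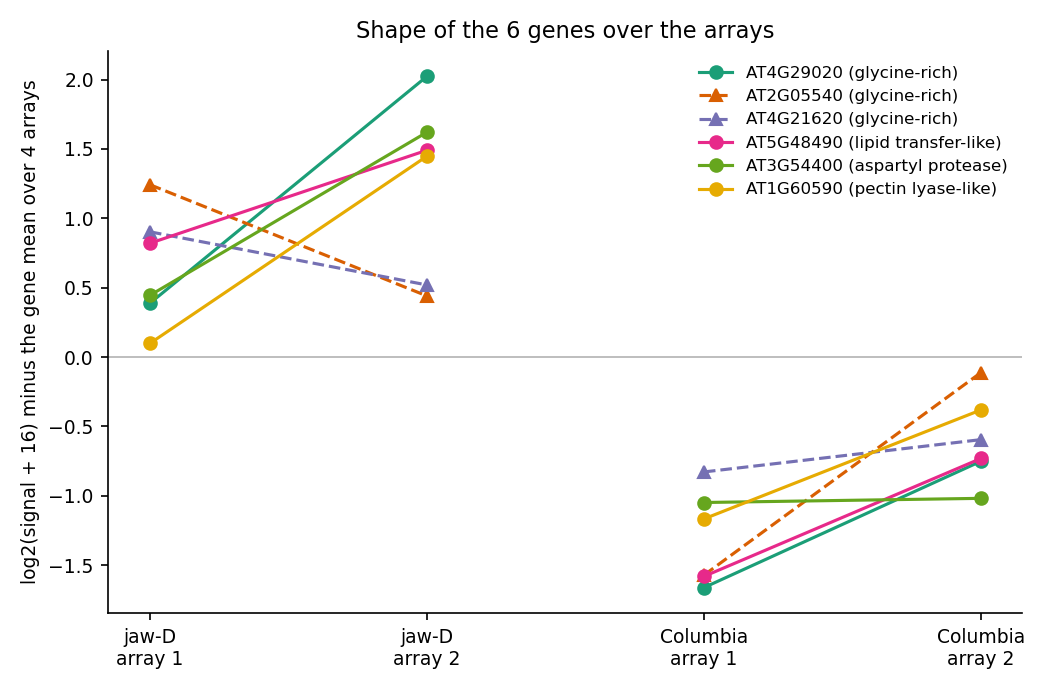
Log2(signal + 16) of each gene minus its mean over the 4 arrays (y axis) on jaw-D arrays 1 and 2 and Columbia arrays 1 and 2 (x axis), with lines joining arrays of a genotype. Circles with solid lines are the 4 genes higher on jaw-D array 2, and triangles with dashed lines are AT2G05540 and AT4G21620, higher on jaw-D array 1. In Columbia every gene is higher on array 2, by 0.03 to 1.46.

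Compared number by number, jaw-D array 1 minus Columbia array 1 and jaw-D array 2 minus Columbia array 2 were both above 0 for every gene. This had to be so, as the genotypes did not overlap. For AT2G05540 the first of these was 2.81 and the second 0.55, the widest disagreement. For AT5G48490 they were 2.40 and 2.22, the closest. AT3G54400 had 1.49 and 2.64, AT4G29020 had 2.05 and 2.77, AT4G21620 had 1.73 and 1.11, and AT1G60590 had 1.26 and 1.83. Arrays are not known to be paired by their number, so these are descriptions.

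**Figure D3:**
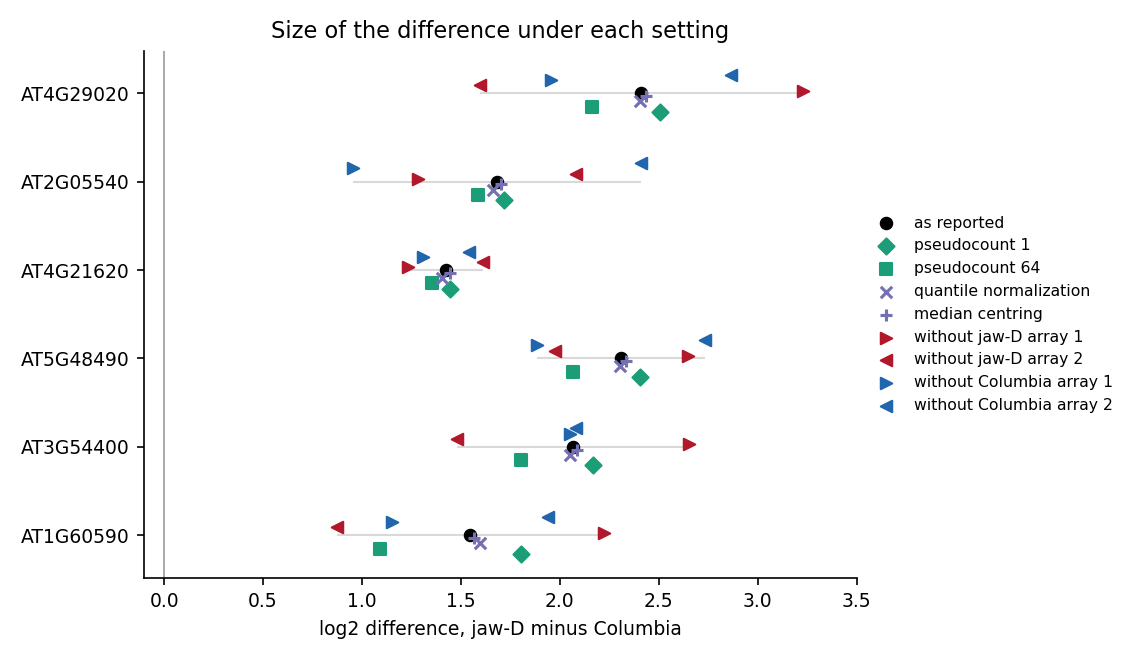
Log2 difference, jaw-D minus Columbia (x axis), of each gene as reported (black), with another added constant (green), with another normalization (purple) and without 1 array (red for a jaw-D array, blue for a Columbia array). Every point lies above 0, from 0.87 for AT1G60590 to 3.23 for AT4G29020, and the widest shifts come from leaving out an array. As the genotypes did not overlap for these genes, leaving out an array or changing the constant cannot bring a point below 0.

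Other genes of the same families were then examined, from lists of loci that did not include the 6. Of 89 listed loci 45 were measured, and none passed the test over all probe sets. With limma 0 of 45 were called, beside 0.189% of all probe sets. In a set of this size a lack of calls is near that share, so nothing is read from it. At an unadjusted p under 0.05 by limma 7 were higher in jaw-D and 2 lower, beside 4.53% and 8.47% of all probe sets. The glycine-rich RNA-binding proteins were not analysed here.

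Among the 8 measured of 16 glycine-rich protein genes, the median log2 difference was -0.03, near that of all probe sets. AT4G30450 read 153.2 and 160.3 in jaw-D, against 95.3 and 83.6 in Columbia, a log2 difference of 0.71 (SE 0.15, adjusted p = 0.188 by limma). AT3G23450 differed by 0.56 on the log2 scale (adjusted p = 0.268 by limma). AT2G05530, the gene next to AT2G05540, read 12.6 and 25 in jaw-D and 33.9 and 24.7 in Columbia, so the genotypes overlapped and its log2 difference was -0.40 (adjusted p = 0.529 by limma).

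The lipid-transfer list, with 10 of 28 genes measured, had a median of -0.03. AT3G18280 read 268.4 and 264.1 in jaw-D, against 129.8 and 107.9 in Columbia, with replicates close together in both. Its log2 difference of 1.07 (SE 0.16) had an adjusted p of 0.109 by limma, and it was called, as was AT4G30450, in a test of the brighter probe sets alone, whose mean signal was no lower than the median. AT2G10940, a bright gene, read 3729.4 and 3732.6 in jaw-D and 2734.4 and 2252.7 in Columbia (log2 difference 0.58, adjusted p = 0.265 by limma). AT5G01870, at -0.45 with an adjusted p of 0.534 by limma, was dim throughout.

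Of the aspartyl protease genes, 11 of 17 were measured and had a median log2 difference of 0.13. AT1G09750 read 2567.6 and 3384.1 in jaw-D, against 1834.6 and 1766.7 in Columbia. Like AT3G54400 it was highest on jaw-D array 2, and its log2 difference was 0.71 (SE 0.18, adjusted p = 0.243 by limma). AT2G03200 read 16 and 24.9 in jaw-D and 36.2 and 31.4 in Columbia, a log2 difference of -0.46 (adjusted p = 0.371 by limma). AT1G62290, which encodes a protease of the phytepsin kind, had 0.31 (adjusted p = 0.550 by limma).

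In the list of pectin lyase-like and polygalacturonase genes 16 of 22 were measured, and the median log2 difference was 0.33, the highest of the 4 lists. Of the 16, 14 had a difference above 0, as did 43.1% of all probe sets, and 10 were higher on both jaw-D arrays, beside 17.5%. By limma 0 were called, beside 0.189%. At an unadjusted p under 0.05 by limma 2 were higher and 1 lower, beside 4.53% and 8.47% of all probe sets. The list was written with earlier results of these data known, so these counts are a description and nothing is read from them. AT1G80170 read 101 and 101.8 in jaw-D and 67.5 and 45.2 in Columbia (log2 difference 0.72, SE 0.19, adjusted p = 0.253 by limma). AT3G61490 had 0.46 (adjusted p = 0.371 by limma). The exception with the largest difference was ADPG1, a polygalacturonase of organ dehiscence, which read 8.9 and 10 in jaw-D against 17.3 and 29 in Columbia, a log2 difference of -0.61 (adjusted p = 0.299 by limma). AT1G10640, named after its values were seen, read 37.2 and 84 in jaw-D and 14.9 and 33.9 in Columbia. Its arrays stood in the same order within each genotype as those of AT1G60590, and its log2 difference of 0.89 had adjusted p = 0.391 by limma.

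**Figure D4:**
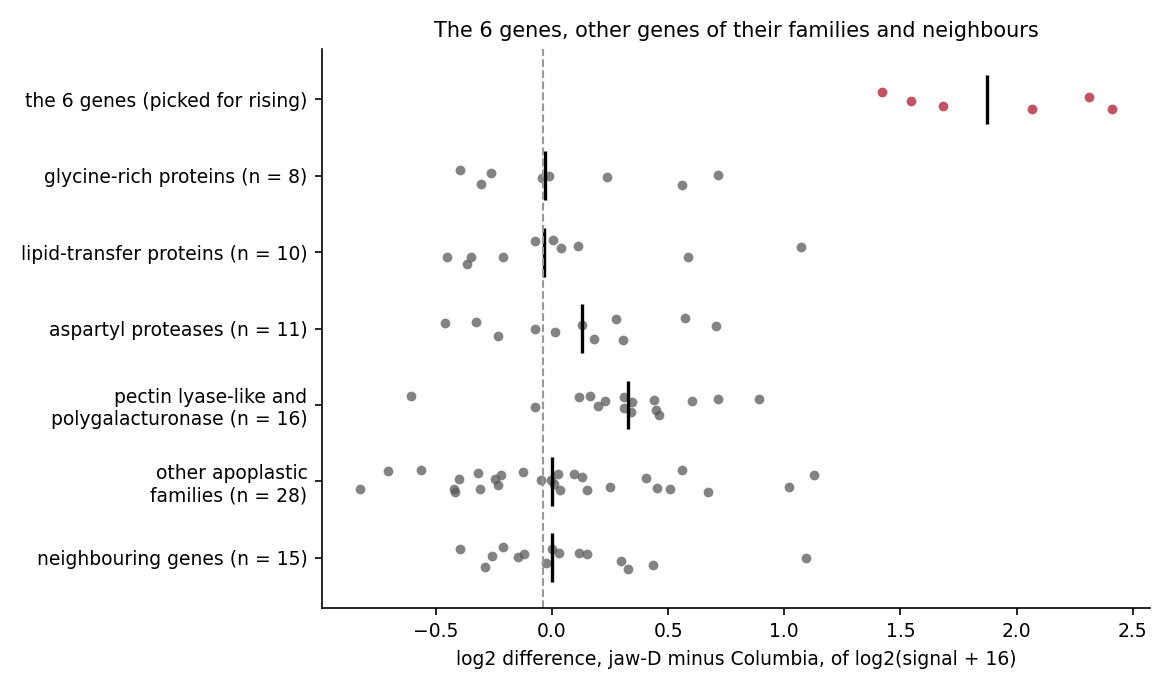
Log2 difference, jaw-D minus Columbia (x axis), for the 6 genes (red), the measured genes of each family list, the other apoplastic families and the neighbouring genes (grey). Each point is a gene, black bars are medians, the dashed line is the median of all probe sets at -0.04, and vertical jitter carries no value. The 6 genes, picked for this difference, lie at 1.42 or above, while the highest other point is 1.13.

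Families of other apoplastic proteins were taken from lists of 30 loci, of which 6 were measured. With limma 0 were called and 2 had an unadjusted p under 0.05, beside 0.189% and 13.0% of all probe sets. A wider list, which added genes by their name text after the data were seen, held 28 measured genes with a median log2 difference of 0.00. Again 0 were called by limma, with 5 higher and 4 lower in jaw-D at an unadjusted p under 0.05, beside 4.53% and 8.47% of all probe sets. In both apoplastic sets the lack of calls is near the 0.189% over all probe sets, so nothing is read from it. Genes for xyloglucan endotransglucosylases, which cut and rejoin the hemicellulose xyloglucan, had differences of both signs. Of 10 measured in the wider list 3 were above 0 and 7 below, with a median log2 difference of -0.23. XTH16 read 62.1 and 94.4 in jaw-D, against 18.2 and 36.7 in Columbia, a log2 difference of 1.13 (adjusted p = 0.222 by limma). XTH18, at 2.4 and 6.4 in jaw-D against 22.8 and 12.2 in Columbia, had -0.70 (adjusted p = 0.287 by limma). XTH19, at 1.4 and 16.3 in jaw-D against 23.1 and 29.3 in Columbia, had -0.83 (adjusted p = 0.347 by limma). Both were dim on every array. The pectin methylesterase gene AT4G02330 read 62.6 and 134.6 in jaw-D and 36.5 and 38.8 in Columbia (log2 difference 1.02, adjusted p = 0.288 by limma), and 2 others, AT3G43270 and AT3G49220, had 0.03 and 0.13. The subtilase genes SBT1.3, ATSBT5.2 and ARA12, which encode secreted serine proteases, had 0.67, 0.56 and 0.45, with adjusted p of 0.335, 0.319 and 0.353 by limma. SBT4.13 and SBT5.4, of the same family, were lower on both jaw-D arrays, with log2 differences of -0.42 and -0.31 and adjusted p of 0.371 and 0.446 by limma. These 2 genes were dim. SBT4.13 read 14.1 and 9.9 in jaw-D, against 19 and 23.8 in Columbia. SBT5.4 read 27.4 and 24.6 in jaw-D, against 36.5 and 35.6 in Columbia. HRGP1, an extensin gene, had -0.56 with an adjusted p of 0.320 by limma. Arabinogalactan and germin-like proteins were not analysed here.

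None of the measured neighbours of the 6 genes passed the test. Of the 3 genes on either side of each, 36 in all, 15 were measured. With limma 0 were called and 1 had an unadjusted p under 0.05, beside 0.189% and 13.0% of all probe sets. For so few genes the lack of calls is near that share, and nothing is read from it. Their median log2 difference was 0.00, and the range was -0.40 to 1.09. The top of that range was AT4G29030, the gene next to AT4G29020, which read 29.5 and 94.8 in jaw-D and 30.4 and 7.9 in Columbia. The genotypes overlapped, and its difference of 1.09 (SE 0.49) had an adjusted p of 0.429 by limma. On its other side AIM1, which encodes an enzyme of fatty acid beta-oxidation, read 1609.2 and 1386.5 in jaw-D against 1553.8 and 1489 in Columbia, a log2 difference of -0.03. The remaining neighbours of AT4G29020, AT4G28990 and AT4G29000, had 0.00 and -0.29.

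Beside AT4G21620, the genes AT4G21630, AT4G21640 and AT4G21650 had log2 differences of 0.44, -0.15 and 0.11, and the first of these was the 1 with an unadjusted p under 0.05. It was dim, at 8.1 and 10.3 in jaw-D and 2.6 and 2.6 in Columbia. Beside AT5G48490, AT5G48480 had 0.33 and AT5G48500 had 0.15, while DIR1 itself, the adjacent gene on the other side, was not analysed here. AT3G54390, next to AT3G54400, had 0.30. Near AT1G60590, AT1G60570 had -0.26 and AT1G60610 had -0.12. The pseudogenes AT2G05550 and AT2G05560 near AT2G05540 had -0.21 and 0.03 and read under 9 on every array.

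Genes most like the mean pattern of the 6 were taken from the 5988 brighter probe sets of 1 gene. That filter used the mean over all 4 arrays, so a gene dim in Columbia could pass it through its jaw-D values. The measure was the same Euclidean distance over the 4 arrays, and with so few arrays many genes that are high in jaw-D will lie near. The nearest was AT5G45670, a gene for a GDSL-type lipase, at a distance of 0.37, which read 93.7 and 204.5 in jaw-D and 11.3 and 39.5 in Columbia. Next came AT2G38870, which encodes a protease inhibitor of the potato inhibitor I type, at 0.47, with 337.3 and 408 in jaw-D and 97.1 and 125.7 in Columbia. AT3G07540, a formin gene, was at 0.71, AT1G65500 at 0.72 and the cytochrome P450 gene CYP71B22 at 0.76. All 5 had jaw-D array 2 above array 1 and Columbia array 2 above array 1, as did the mean of the 6. Picking by distance to that mean favours this order, so nothing is read from it.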

How the data were processed

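The 4 arrays, 2 of jaw-D and 2 of Columbia, were grouped by their descriptions. The deposited table holds signal intensities per probe set, linear by their range and form. The mean between the 2nd and 98th percentiles lay near 200 on each array, so the authors had scaled the arrays alike. The software is not given in the sources used here, and no detection calls were used. Of 22810 rows, 64 controls were left out of the tests. Of the 22746 probe sets, 13513 had 1 gene, 503 several and 8730 were not named here. Through the TAIR10.1 gene table, used only for names and gene order, 13484 were matched to 13333 loci. A gene with several probe sets was read from the brightest.

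Signals were transformed as log2(signal + 16). Differences, jaw-D minus Columbia, were tested over all probe sets in limma 3.58.1 (lmFit, eBayes; R 4.3.3) two-sided (degrees of freedom 2 residual, 3.76 prior), with Benjamini-Hochberg adjustment and a threshold of 0.05. Exact permutation of 2 against 2 arrays cannot go below p = 0.333, so the number of arrays limits the precision. The fit was also run on simulated data, in which the spread was shuffled across probe sets. Those data lack the link between signal and spread, so they do not give the error rate here. The 6 genes and all lists were chosen with earlier results of these data known. Since the gene table has no descriptions, family lists used hand-written loci. Named were the 6 genes, up to 3 genes of each list with the smallest unadjusted p, all measured genes among 3 neighbours on each side, and the 5 nearest patterns. Other genes were chosen after their values were seen. Alternatives were quantile normalization, median centring, constants of 1 and 64, a filter on dim probe sets, an intensity trend, the replicate number as a block and each array left out. No sequences were used. Figures were drawn with matplotlib 3.10.9.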

Additional observations from a re-analysis of the deposited data

How the results depend on the processing

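All 6 genes kept a difference above 0 under every setting run. As their genotypes did not overlap, leaving out an array or changing the added constant could not have brought a difference below 0. That the differences stayed above 0 therefore supports nothing. Without 1 array the log2 differences ran from 1.59 to 3.23 (AT4G29020), 0.95 to 2.41 (AT2G05540), 1.23 to 1.61 (AT4G21620), 1.89 to 2.74 (AT5G48490), 1.48 to 2.65 (AT3G54400) and 0.87 to 2.22 (AT1G60590). The count of the 6 called was 4 over brighter probe sets, 2 with an intensity trend and 2 with the replicate block, where 2.56%, 0.453% and 0.290% of all probe sets tested were called, and 0 otherwise. As the 6 were picked from these same values, these counts, added after seeing the data, support nothing. The 43 calls over all probe sets became 291 over brighter probe sets, where fewer were tested and the variance was fitted anew. The parts of these in the rise were not separated. Calls were 103 with the trend, 66 with the replicate block and 0 with a constant of 1, where 2538 had an unadjusted p under 0.05 by limma. Calls were also 0 to 0 without 1 array, where the lone array of a genotype is taken to vary as much as the other genotype, with 1978 to 2492 at an unadjusted p under 0.05. The share of calls higher in jaw-D, 18.6%, was 40.2% over brighter probe sets, 34.0% with the trend and 33.3% with the block. Among family genes 2 were called over brighter probe sets (AT4G30450 and AT3G18280) and 1 with the trend (AT3G18280). The block changed no call on the family genes, the apoplastic lists of 30 loci or the neighbouring genes. Over all probe sets but the controls, the deviations of arrays with the same number had a correlation of -0.0743. The 25S rRNA control, which that value leaves out, was higher on array 1 of both genotypes. Whether arrays of the same number share a batch was not tested. Calls on the apoplastic lists of 30 loci and on neighbours were 0 under all settings. The wider apoplastic list and protein-coding neighbours only, both chosen after seeing the data, were counted in the main fit alone, with 0 called in each.

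Some differences near 0 changed sign, none of them called. AT4G28990 was 0.029 with quantile normalization and 0.020 with median centring. Without 1 array, ranges were -0.058 to 0.055 for AT4G28990, -0.13 to 0.080 for AIM1 (AT4G29010), -0.45 to 0.026 for AT2G05550, -0.53 to 0.24 for AT4G21640, -0.20 to 0.43 for AT4G21650, -0.70 to 0.46 for AT1G60610, -0.12 to 0.38 for AT3G49220 and -0.19 to 0.25 for AT3G43270. The cause of these sign changes was not tested. With quantile normalization some dim genes shifted upward, as from -0.31 to -0.15 for SBT5.4, from -0.61 to -0.45 for ADPG1 and from 1.13 to 1.23 for XTH16. The part of the low end of the arrays in these shifts was not tested.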

Other observations

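The single gene most like each of the 6 was also looked for among the 5988 brighter probe sets of 1 gene, where jaw-D values could again carry a gene past the filter. AT5G45670, the GDSL-type lipase gene, was the nearest to AT4G29020 (distance 0.61), to AT5G48490 (0.41) and to AT1G60590 (0.54). AT1G65500, at 279.9 and 363.1 in jaw-D and 41.6 and 47.1 in Columbia, was the nearest to AT3G54400 (0.71). For AT2G05540 it was CHI, a chitinase gene, which read 482.6 and 464.9 in jaw-D and 58.2 and 300.4 in Columbia, at a distance of 0.69. CHI and AT2G05540 were alike in that their Columbia arrays stood far apart, with array 1 the low one. For AT4G21620 it was AT5G47330, at 187.9 and 137.2 in jaw-D and 39.6 and 66.2 in Columbia, at a distance of 0.24. Both of these genes were higher on array 1 in jaw-D and on array 2 in Columbia. Picking by distance favours such likenesses, so they are descriptions only. Of these nearest genes AT1G65500 was called by limma (adjusted p = 0.0215), beside 0.189% of all probe sets. The adjusted p by limma was 0.201 for AT5G45670, 0.356 for CHI and 0.148 for AT5G47330. As these genes were picked for likeness to genes high in jaw-D on the same arrays, these p-values support nothing.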
